A study of Danio rerio with 8 samples.

Results

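Type I collagen, the main fibre-forming collagen of bone, skin and tendon, is encoded in zebrafish by col1a1a (ENSDARG00000012405), col1a1b (ENSDARG00000035809) and col1a2 (ENSDARG00000020007). These 3 genes were taken by their Ensembl identifiers from the 35117 genes counted in each of 8 RNA sequencing libraries, and all 3 passed the filter on low counts in every comparison. The gene name table used here gives the α3 and α2 genes (col1a1b and col1a2) human-style symbols, so these zebrafish names were taken with the identifiers. The sorted samples were EGFP positive cells of the Tg(fli1a:EGFP) line. Its green fluorescent reporter is driven by the promoter of fli1a and marks vascular endothelium and also neural crest-derived mesenchyme and cartilage of the head. All sorted samples therefore hold a mixture of cell types.

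In run 2, 20000 cells were sorted for each RNA isolation kit, giving RNA samples A_2 (RNAqueous micro kit) and Q_2 (RNeasy plus micro kit), and each RNA was split into technical replicates a and b. In run 1, 20000 cells per kit gave A_1 and Q_1 with 1 library each. The embryos of the sorted cells were 3 days old in the sample records, while the methods allow a wider range of ages. For the whole embryo samples A_unsorted and Q_unsorted, RNA was isolated from a single embryo of 5 days with each kit. The sample records name these embryos Fli:GFP, as they do the sorted samples. Between 10763174 and 19537939 reads per library were counted on genes, and levels are given as CPM, the count scaled to a common total of counts on genes. Age, dissociation and sorting differ together between sorted cells and whole embryos and cannot be told apart, and the libraries of run 2 also had more amplification cycles than the others. The embryo libraries were sequenced with run 2, so the comparison of run 1 with embryos also differs in sequencing run. By the methods, the cells of all sorted samples came from 1 pool of fish, so the spread between sorted RNA samples holds no difference between pools. The record of Q_1 carries a sample number of 2 in its title and of 1 in its source name. It was placed in run 1 by the source name, and all values of run 1 depend on that. Its share of reads on multiple loci, 5.49%, equals the value that the paper lists for Q_1. However, the paper's running text and that list give the uniquely mapped shares of A_1 and Q_1 the opposite way round. The kits of run 1 are taken here from the sample records, and a swap was not tested.

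Type I procollagen is built in the endoplasmic reticulum, where chains are hydroxylated on proline and lysine, folded into a triple helix with the help of chaperones and exported in large carriers. Outside the cell the propeptides are removed, and the molecules assemble into fibrils and are cross-linked. In zebrafish the triple helix can hold an α1 chain from col1a1a, an α3 chain from col1a1b and an α2 chain from col1a2, whereas mammals pair α1 chains with an α2 chain and have no separate α3 gene.

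All 3 genes were among the abundant transcripts of the sorted cells and were higher in sorted cells of run 2 than in whole embryos, by 2.68 to 3.61-fold. In run 1 the RNA samples of the kits gave different pictures. In CPM, Q_1 was nearer to run 2 and A_1 was near or below the whole embryos. Together the 3 genes took between 2.14% and 2.99% of the counts in the 4 libraries of run 2, 1.88% in Q_1, 0.567% in A_1, and 0.746% and 0.666% in the whole embryos.

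The col1a1a gene, which encodes the α1 chain, had 9186 and 12508 CPM in A_2a and A_2b and 10076 and 9197 CPM in Q_2a and Q_2b. It had 2493 CPM in A_1 and 8349 CPM in Q_1, against 3027 CPM in A_unsorted and 2429 CPM in Q_unsorted. Every library of run 2 and Q_1 lay above both embryos, while A_1 lay between them. Ranked by counts among all genes, col1a1a was between the third and the fifth gene in the libraries of run 2, number 6 in Q_1, number 44 in A_1, and numbers 26 and 32 in the embryos.

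The col1a1b gene, which encodes the α3 chain, had 4751, 6197, 4392 and 4092 CPM in A_2a, A_2b, Q_2a and Q_2b. It had 1370 CPM in A_1 and 3593 CPM in Q_1, against 1776 and 1693 CPM in A_unsorted and Q_unsorted. In CPM, A_1 was the lowest of all libraries for this gene.

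The col1a2 gene, which encodes the α2 chain, had 8024, 11204, 8947 and 8066 CPM in A_2a, A_2b, Q_2a and Q_2b. It had 1804 CPM in A_1 and 6880 CPM in Q_1, against 2662 and 2534 CPM in A_unsorted and Q_unsorted. As for col1a1b, the embryos lay between A_1 and the other sorted libraries in CPM.

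**Figure D1:**
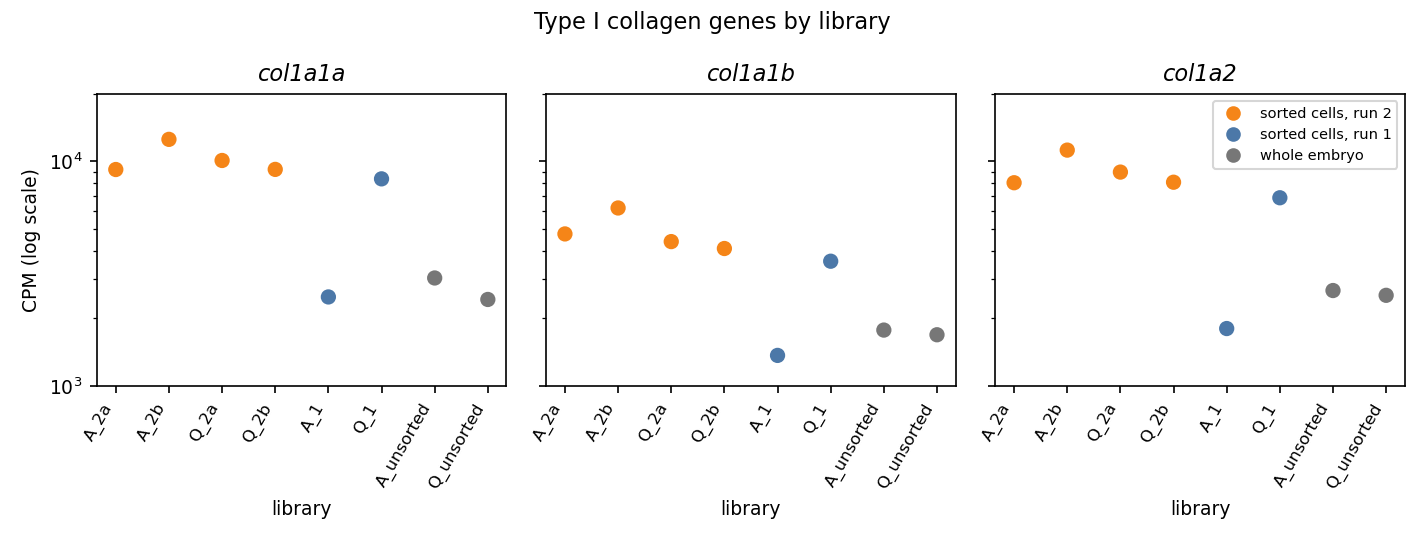
CPM of each type I collagen gene (log axis) in each of the 8 libraries, with sorted cells of run 2 in orange, of run 1 in blue and whole embryos in grey. The 4 libraries of run 2 and Q_1 lie above both embryos for all 3 genes, and A_1 lies near or below the embryos.

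Technical replicates of 1 RNA differed less than the RNA samples of run 1. However, A_2a and A_2b differed more from each other than the RNA samples A_2 and Q_2 did. A_2b was above A_2a by 1.36-fold for col1a1a, 1.30-fold for col1a1b and 1.40-fold for col1a2, and Q_2b was 0.913, 0.932 and 0.902 times Q_2a for the same genes. The 3 genes thus moved together between portions of the same RNA. Between the RNA samples of run 2, Q_2 was 0.913, 0.793 and 0.911 times A_2 for col1a1a, col1a1b and col1a2. For the tests, the portions of an RNA were added up and entered as 1 sample. The SDs given below for run 2 therefore leave out the spread between portions.

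Sorted cells of run 2 were set against whole embryos to ask which transcripts are enriched in reporter-positive cells. The level of col1a1a was 10069 ± 650 CPM in sorted cells of run 2 and 2728 ± 422 CPM in whole embryos (SD, n = 2 RNA samples each). Its log2 fold change was 1.85 (SE 0.46, 95% interval 0.87 to 2.84, adjusted p = 0.0044 with edgeR's quasi-likelihood test and Benjamini-Hochberg adjustment). For col1a1b the levels were 4784 ± 779 CPM in sorted cells of run 2 and 1734 ± 58.7 CPM in whole embryos, with a log2 fold change of 1.42 (SE 0.42, edgeR adjusted p = 0.013). For col1a2 they were 8894 ± 587 CPM and 2598 ± 90.0 CPM in the same order of groups, with a log2 fold change of 1.73 (SE 0.45, edgeR adjusted p = 0.0060).

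All 3 members were thus called higher in run 2, beside 23.5% of the 21377 genes tested that were called higher and 28.2% called lower. A larger log2 fold change was found for 9.4% of tested genes in the case of col1a1a, 14.9% for col1a1b and 10.7% for col1a2. In these bulk samples, a different share of collagen-producing cells and a different amount of collagen RNA per cell cannot be told apart. The calls depended on single RNA samples. Leaving one out left a single RNA sample in a group, and fewer of all genes were called too. Over all alternatives the log2 fold changes of the 3 genes lay between 1.04 and 1.95. Without A_2 the adjusted p of edgeR became 0.076, 0.14 and 0.087 for col1a1a, col1a1b and col1a2. Without A_unsorted it became 0.11 for col1a1b and 0.065 for col1a2, and without Q_2 it became 0.061 for col1a1b.

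In run 1, col1a1a had 5421 ± 4141 CPM in sorted cells, against 2728 ± 422 CPM in the embryos (SD, n = 2 RNA samples per group). A_1 and Q_1 lay further apart than the mean of run 1 and the mean of the embryos. The log2 fold changes were 1.15 for col1a1a (SE 0.66), 0.68 for col1a1b (SE 0.58) and 0.89 for col1a2 (SE 0.66), with edgeR adjusted p of 0.18, 0.37 and 0.30. None of the 3 was called, beside 17.3% of 20254 genes called higher and 25.5% called lower. With DESeq2 in place of edgeR, col1a1a alone was called (log2 fold change 1.201, adjusted p = 0.034).

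The run 1 estimates rested on Q_1. The fits scale by TMM, whose factors over all RNA samples were 0.797 for A_1 and 1.16 and 0.970 for A_unsorted and Q_unsorted. A_1 therefore stood higher against the embryos in the fits than in CPM. Without Q_1 the log2 fold change of col1a2 was −0.18, that of col1a1a was 0.22 and that of col1a1b was 0.0035, whereas without A_1 they were 1.52, 1.74 and 1.17. Between the RNA samples of run 1, Q_1 was above A_1 by 3.35-fold for col1a1a, 2.62-fold for col1a1b and 3.81-fold for col1a2. With 1 RNA sample per kit, kit and sample cannot be told apart. The paper lists lower RNA and cDNA concentrations for A_1 than for any other sorted sample, and their part was not tested. In run 2, Q_2 was 0.913, 0.793 and 0.911 times A_2 for the same genes.

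Sorted cells of run 2 were also compared directly with those of run 1, with kit as a covariate. The log2 fold changes were 0.80 for col1a1a, 0.76 for col1a1b and 0.99 for col1a2, with edgeR adjusted p of 0.40, 0.42 and 0.27. None was called, beside 4.24% of 19639 genes called higher in run 2 and 6.7% called lower. Scaling by library totals alone, in place of TMM, moved the mean of the 3 log2 fold changes by 0.34 here and by −0.16 in run 1 against whole embryos, with no member called. The 95% intervals ran from −0.31 to 1.91, from −0.34 to 1.86 and from −0.13 to 2.11. Their upper ends correspond to 3.75, 3.62 and 4.33-fold higher levels in run 2. In this fit edgeR took the spread from all genes together, so the intervals are no firm bounds for these 3 genes. In CPM, without TMM, the log2 differences from A_1 to A_2 were 2.08, 1.96 and 2.37 for col1a1a, col1a1b and col1a2. From Q_1 to Q_2 they were 0.20, 0.24 and 0.30. Both comparisons with embryos share the same 2 embryo samples, and the difference between them is what this comparison of runs tests.

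**Figure D2:**
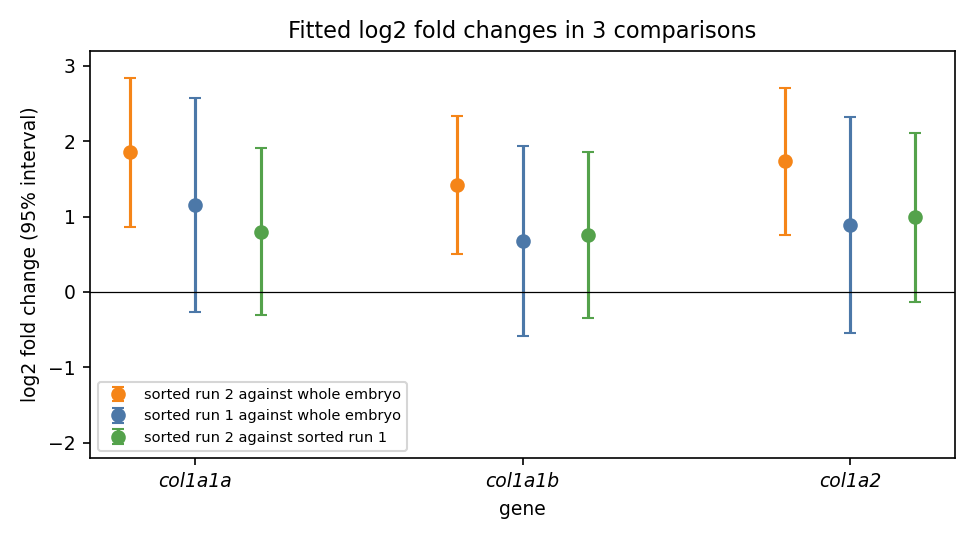
Fitted log2 fold change of each type I collagen gene with its 95% interval, for sorted run 2 against whole embryo (orange), sorted run 1 against whole embryo (blue) and sorted run 2 against sorted run 1 (green). The intervals of sorted run 2 against whole embryo lie above 0 for all 3 genes, and all others include 0.

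The ratio of counts between 2 of the genes was compared across samples. It is not a ratio of molecules, since transcript lengths were not used here. The log2 ratio of col1a1b over col1a1a was −0.98 in A_2, −1.18 in Q_2, −0.86 in A_1 and −1.22 in Q_1, against −0.77 in A_unsorted and −0.52 in Q_unsorted. The groups did not overlap. The means were −1.06 ± 0.17 in sorted cells (SD, n = 4) and −0.65 ± 0.18 in whole embryos (SD, n = 2), a difference of −0.42. An exact two-sided permutation test gave p = 0.133, the smallest that 15 arrangements allow, and 0.4 after Benjamini-Hochberg adjustment over the 3 ratios.

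The log2 ratio of col1a2 over col1a1a was −0.18 in A_2, −0.18 in Q_2, −0.47 in A_1 and −0.28 in Q_1, against −0.19 in A_unsorted and 0.06 in Q_unsorted. The groups overlapped, and the difference was −0.21 (exact permutation p = 0.4), with −0.09 without Q_unsorted and −0.34 without A_unsorted. The log2 ratio of col1a1b over col1a2 was −0.80 in A_2, −1.002 in Q_2, −0.40 in A_1 and −0.94 in Q_1, against −0.58 in both embryos. Here A_1 lay above the embryos and the other 3 sorted samples below them, and the difference was −0.20 (exact permutation p = 0.4), with −0.33 without A_1 and −0.13 without Q_2. Within the sorted cells, col1a1b was therefore a smaller part of the collagen counts in Q_1 than in A_1, where all 3 genes were low.

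**Figure D3:**
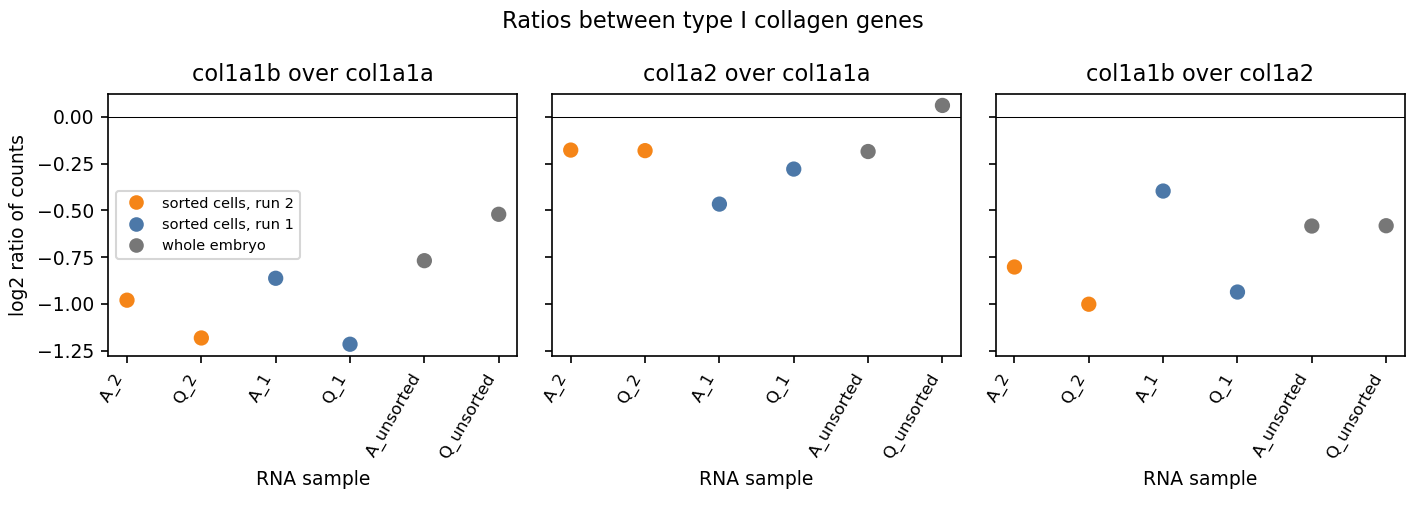
Log2 ratio of counts for each pair of type I collagen genes in each RNA sample, with sorted cells of run 2 in orange, of run 1 in blue and whole embryos in grey. For col1a1b over col1a1a, all 4 sorted samples lie below both embryos, and the other ratios overlap.

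The count used here ignores the strand, and a read in exons of genes on opposite strands is then given to neither gene. For col1a1a the strand-specific columns recovered such reads. They made up 14.6% and 16.6% of the col1a1a reads in A_2a and A_2b, 13.4% and 12.7% in Q_2a and Q_2b, 3.07% in A_1 and 4.52% in Q_1, against 8.87% in A_unsorted and 7.58% in Q_unsorted. All 4 libraries of run 2 lay above the embryos and both libraries of run 1 lay below them. For col1a1b and col1a2 at most 6 reads per library were lost in this way.

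The same number of reads, within 3 in every library, was missing from si:dkey-31n5.4 (ENSDARG00000097738), while the next closest gene differed by up to 21272 reads. Outside the overlap this gene had 35.7 to 41.5 CPM in run 2 and 89.1 and 76.4 CPM in A_1 and Q_1, against 7.44 and 2.00 CPM in the embryos. Since the protocol keeps no strand, reads in the overlap cannot be assigned to either gene. With them added to col1a1a, its log2 fold change in run 2 against whole embryos was 1.95, and the log2 ratio of col1a1b over col1a1a was −1.22 in A_2 and −1.39 in Q_2, against −0.90 and −0.63 in the embryos. In that count A_1, at −0.91, lay only just below A_unsorted.

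**Figure D4:**
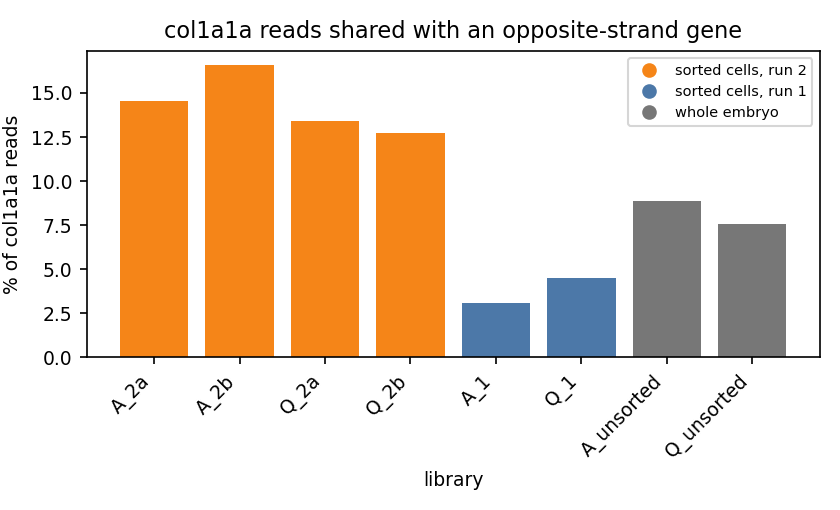
Percent of col1a1a reads that lie in exons shared with a gene on the opposite strand, by library, with sorted cells of run 2 in orange, of run 1 in blue and whole embryos in grey. The 4 libraries of run 2 lie between 12.7% and 16.6%, above both embryos, and the libraries of run 1 lie below them.

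Genes that act with type I collagen were described by lists. Each list is given as counts of genes called in sorted cells of run 2 against whole embryos and as its median log2 fold change. Over all 21377 genes tested there, the median was −0.003, with 23.5% called higher and 28.2% called lower. Symbols in capitals are those of the name table, and where it gives several genes 1 symbol, each was counted, and values are those of the gene with the largest change. Of 12 other fibrillar collagens, 10 were higher and 1 was lower, with a median of 2.78. The COL2A1 gene ENSDARG00000069093, for the main collagen of cartilage, had 25450 ± 5108 CPM in sorted cells of run 2 and 1927 ± 694 CPM in the embryos (SD over 2 RNA samples per group), and its log2 fold change was 3.71. COL11A2, a chain of the type XI collagen of cartilage, rose by 3.33 and col27a1b by 3.75 on that scale. The col5a3b gene, for a chain of type V collagen, fell by 1.29. Of 14 fibril-associated and other collagens, 9 were higher and 1 was lower, with a median of 1.45. COL12A1, a collagen on the surface of fibrils, had a log2 fold change of 2.75, COL10A1 2.41 and COL6A3 2.26, and col14a1b fell by 1.56.

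Genes for hydroxylation and folding of procollagen were higher in 21 of 22 cases and lower in none, with a median of 2.69. SERPINH1, the collagen chaperone also called Hsp47, had 2423 ± 265 CPM in sorted cells of run 2 and 102 ± 4.50 CPM in the embryos (SD over 2 RNA samples per group), and its log2 fold change was 4.53. P3H3, of the prolyl 3-hydroxylase family, had a log2 fold change of 3.75, and PLOD3, a lysyl hydroxylase, one of 3.53. Of 11 genes for export of procollagen 9 were higher and none was lower, with a median of 1.51. SEC24D, a coat protein of the export vesicles, had a log2 fold change of 4.14, and the transcription factors CREB3L1 and CREB3L2 had 2.77 and 2.29. Of 11 genes for propeptide removal 9 were higher and none was lower, with a median of 2.08. Without A_2 fewer genes for export and propeptide removal were called, as for all genes, with medians of 1.90 and 1.96. The enhancers of the C-proteinase pcolceb and pcolcea had log2 fold changes of 3.44 and 2.59, and the N-propeptidase gene ADAMTS3 had one of 3.06.

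Of 9 tested cross-linking genes, 6 were higher and 1 was lower, with a median of 1.98. LOXL2, LOXL3 and LOXL4, of the lysyl oxidase family, had log2 fold changes of 3.35, 3.18 and 3.06. The gene called lower was loxl5b, and LOX itself, named after its value was seen, had a log2 fold change of 0.07 (edgeR adjusted p = 0.86). Of 17 genes for fibril assembly, 9 were higher and 1 was lower, with a median of 1.20 (log2). The largest increases were in tnxba, for a tenascin, with 3.91, FN1, for fibronectin, with 2.56, and BGN, for the proteoglycan biglycan, with 2.23. The gene called lower was an FMOD gene at low counts. The other FN1 gene, named after its value was seen, had 139 and 101 CPM in A_2 and Q_2, against 209 and 135 CPM in the embryos. The other BGN gene had 18.8 and 14.1 CPM, against 15.7 and 9.47 CPM.

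Of 13 tested collagen receptors, 10 were higher and 3 were lower, with a median of 1.99. ITGA11, an integrin chain, MRC2, a receptor for collagen uptake, and DDR2, a receptor tyrosine kinase, had log2 fold changes of 4.12, 3.83 and 3.61. The 3 lower genes were a pair of the 4 genes under ITGB1, at −2.44 and −2.36, and itga2.3, which had 0.58 and 0.77 CPM in A_2 and Q_2, against 0.78 CPM in A_unsorted and 4.91 CPM in Q_unsorted. With kit as a block 10 receptors were higher and 2 lower, and with both runs of sorted cells together 6 and 2. Without any single RNA sample fewer receptors were called higher, as for all genes, with medians between 1.88 and 2.11. Without A_2, Q_2 or Q_unsorted fewer were also called lower. All 10 tested genes for collagen degradation were higher, with a median of 2.27 and log2 fold changes of 5.55 for the collagenase gene mmp13a, 4.10 for the gelatinase gene MMP9 and 2.67 for the inhibitor gene TIMP2. Fewer of these were called without A_2, where fewer of all genes were called too, and their median was then 1.94.

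**Figure D5:**
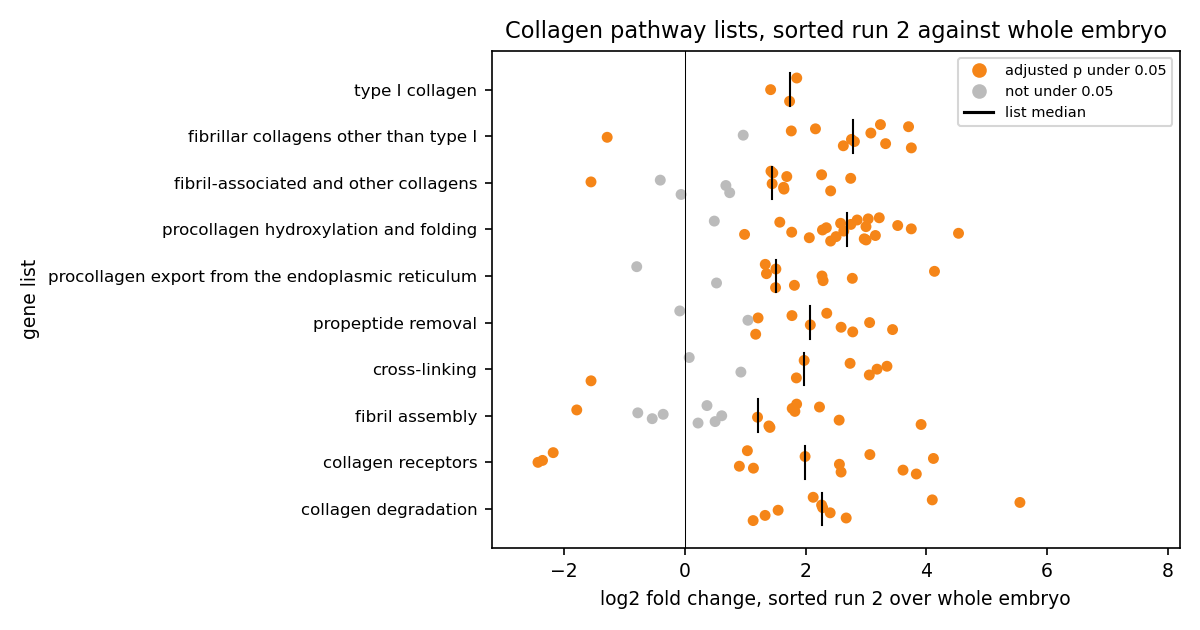
Log2 fold change in sorted run 2 over whole embryo for each tested gene of the type I collagen genes and 9 lists of the collagen pathway (one dot per gene, orange where adjusted p was under 0.05, black bars for medians). All 3 type I collagen genes and all 10 tested degradation genes lie right of 0.

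In run 1 against whole embryos, where 17.3% of all genes were called higher and 25.5% lower, the lists had medians between 0.86 and 2.69. Other fibrillar collagens were higher in 9 and lower in 1 of 12 cases, other collagens in 8 and 2 of 14, and genes for hydroxylation and folding in 18 and 1 of 22. For export 7 of 11 genes were higher and for propeptide removal 6 of 11, with none lower. Cross-linking genes were higher in 5 and lower in 1 of 9 cases, and fibril assembly genes in 8 and 2 of 17. Of 13 receptors 5 were higher and 3 lower, and of 10 degradation genes 9 were higher and none was lower. SERPINH1 had a log2 fold change of 4.53 in run 2 and 4.63 in run 1. P4HB, of the same list and named after its value was seen, differed between the runs. It had 998 and 1179 CPM in A_2 and Q_2 and 104 and 97.7 CPM in A_1 and Q_1, against 387 and 330 CPM in the embryos. Between the runs, where 4.24% of all genes were called higher in run 2 and 6.7% lower, few list genes were called. These were 3 of 22 folding genes, 3 of 13 receptors, 2 of 11 genes for propeptide removal, 1 of 11 for export and 1 of 14 other collagens, all higher in run 2, and 1 folding gene that was lower. None of the 12 other fibrillar collagens was called.

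The genes with the most similar profile were those with the smallest SD, over the 6 RNA samples, of their log2 ratio to each member. The search covered the 10173 genes that averaged 10 CPM or more and had counts in all 6 RNA samples. For col1a1a they were col1a2 (SD 0.17), SHISA3 (0.17), RINT1 (0.20), COL5A2 (0.20) and IFT80 (0.21), while col1a1b was number 22. For col1a2 they were col1a1a (0.17), ext1c (0.19), COPA (0.20), FBXO46 (0.23) and ldlrad3 (0.23), and col1a1b was number 7. For col1a1b they were MMS22L (0.042), FBXO46 (0.075), RHBDF1 (0.090), COPA (0.11) and AJUBA (0.12), with col1a2 number 78 and col1a1a number 133. The median over all genes was 1.00, 1.02 and 0.86 for col1a1a, col1a2 and col1a1b. The α1 and α2 genes were thus nearest to each other, and the α3 gene had many closer genes of much lower counts.

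Marker genes of the cell types that the sorted samples could hold were summed. The 7 genes of the chondrocyte list, which include the COL2A1 genes, summed to 49461 and 37476 CPM in A_2 and Q_2 and to 14360 and 27318 CPM in A_1 and Q_1, against 3987 and 2748 CPM in the embryos. The 6 osteoblast genes summed to 118 and 122 CPM in run 2 and 82.9 and 84.7 CPM in run 1, against 17.6 and 14.3 CPM in the embryos, and bglap had no count in any sample. The 5 endothelial genes summed to between 445 and 581 CPM in sorted cells, against 85.2 and 63.8 CPM in the embryos. FLI1 made up 60.9% to 71.6% of these sums in sorted cells, and the other 4 genes summed to 213 and 157 CPM in A_2 and Q_2 and 144 and 183 CPM in A_1 and Q_1, against 54.5 and 39 CPM in the embryos. FLI1 itself, the gene of the reporter's promoter, had a log2 fold change of 3.45 in run 2 against whole embryos.

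Other lists moved with the groups as well, except the 2 erythrocyte genes, of which none was called in run 2 against whole embryos. These summed to 47.0 and 39.9 CPM in A_2 and Q_2 and 22.9 and 39.9 CPM in A_1 and Q_1, against 41.6 and 22.8 CPM in the embryos. The 3 leukocyte genes summed to 2812 CPM in A_1, 1086 CPM in Q_1 and 896 and 1236 CPM in A_2 and Q_2, against 49.6 and 90.7 CPM in the embryos. The lyz gene made up most of each sum except in A_unsorted, where it had 21.4 CPM and CORO1A 22.3 CPM. All 5 epidermis genes, all 4 muscle genes and all 3 neuron genes were called lower in run 2 than in embryos, beside 28.2% of all genes tested. Fewer of each list were called without A_2, where fewer of all genes were called too. Their median log2 fold changes were then −2.475, −2.18 and −2.51. Without Q_2 fewer epidermis genes were called as well, with a median of −2.31. The 5 endothelial genes were all called higher, beside 23.5% of all genes. Leaving out any single RNA sample, fewer of them were called, as for all genes, with medians between 1.79 and 2.78. In run 1 against whole embryos, and with both runs of sorted cells together, 4 of the 5 were called higher. The 4 tendon genes, of which the THBS4 genes are also in the fibril assembly list, summed to 349 and 306 CPM in run 2 and 210 and 314 CPM in run 1, against 127 and 126 CPM in the embryos. A_1 thus had the lowest chondrocyte sum and the highest leukocyte sum of the sorted samples, but single genes differed. With lyz at 2719 CPM in A_1, LCP1 and CORO1A were lowest there among sorted samples, at 18.4 and 74.4 CPM. The SOX9 genes (488 and 43.7 CPM) and COL9A1 (1781 CPM) were higher in A_1 than in Q_1 (261, 43.2 and 1152 CPM). The COL2A1 genes, acana and MATN1 were lower in A_1 than in Q_1. The part of these cell types in the type I collagen level of A_1 was not tested.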

How the data were processed

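RNA of sorted cells and whole embryos was converted to cDNA with SMART-seq v4. The authors used STAR for alignment to GRCz10 and deposited whole-number counts per Ensembl gene, without normalization and without reads on multiple loci. The column that ignores strand was used. Of 35117 identifiers, 27000 had a symbol. Members and lists were chosen with earlier results of these data known.

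Technical replicates were summed per RNA. By the methods all sorted cells came from 1 pool of fish, so the spread between these samples may be technical. The p-values of edgeR rest largely on a spread estimated across all genes, and less on that of each gene. Tests across genes used edgeR 4.0.16 (quasi-likelihood, TMM, default filter on low counts) in R 4.3.3 with a threshold of 0.05 after Benjamini-Hochberg adjustment. They were also run on simulated data with a single spread for all genes and few changed genes. Those settings differ from these data, so that run is no check of the calls given here. DESeq2 1.42.0 was an alternative. Ratios used exact permutation tests in scipy 1.17.1. Depth allowed a floor of 3 counts, or 0.154 to 0.279 CPM. Intervals cover counting and sample spread as modelled by edgeR.

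Named genes were the members, up to 3 genes per list and direction with the largest log2 fold change in run 2 against whole embryos (adjusted p under 0.05, mean of at least 10 CPM), and the 5 nearest profiles per member. Alternatives were other normalizations, filters, strand sums, thinning to 10763174 counts, kit as a block, separate technical replicates, both runs together, and leaving out each RNA sample.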

Additional observations from a re-analysis of the deposited data

Results flagged for a closer look

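The kit difference of col1a1b ran in opposite directions in the runs for every pair of sorted libraries. The log2 ratio of the RNeasy over the RNAqueous kit was −0.33 in run 2 and 1.39 in run 1. In RNA samples, col1a1a and col1a2 also reversed, at −0.13 for both in run 2 and 1.74 and 1.93 in run 1. Over 10203 genes the kit deviations of the runs had a Spearman correlation of −0.278, so the reversal is not particular to col1a1b. Each run held 1 RNA sample per kit, the libraries of run 2 were portions of A_2 and Q_2, and the difference between the runs was not tested.

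The share of col1a1a reads in the overlap with a gene on the opposite strand came from columns that the comparisons did not use. It was 14.6% and 16.6% in the A_2 libraries and 13.4% and 12.7% in the Q_2 libraries, above the 8.87% and 7.58% of the whole embryos. The sorted libraries of run 1 lay below the embryos, at 3.07% in A_1 and 4.52% in Q_1.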

How the results depend on the processing

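The log2 fold changes of the members in run 2 against whole embryos were between 1.04 and 1.95 over all alternatives. When both runs of sorted cells were set against whole embryos they were 1.49, 1.04 and 1.32 for col1a1a, col1a1b and col1a2, none called, and 3057 genes were called higher. Leaving out 1 RNA sample at a time gave 1.82 to 1.90, 1.31 to 1.56 and 1.64 to 1.83 for these genes, 2205 to 4631 genes called higher and 3367 to 5913 called lower, the lowest counts without A_2. In run 1 against whole embryos, leaving out 1 RNA sample gave −0.18 to 1.52 for col1a2, negative without Q_1 only, and 2156 to 3735 genes called higher, with 2299 without A_1 and 2156 without A_unsorted. DESeq2 gave 1.201 for col1a1a, which it called. Between runs no alternative called a member. There DESeq2 called 303 genes higher and 702 lower, library totals alone gave 384 lower, technical replicates entered separately gave 2221 higher and 2997 lower, and without the kit as a replicate block 522 were higher. Leaving out 1 RNA sample there needed a fit without the kit term, chosen after seeing the data, and gave 94 to 1825 genes higher and 237 to 3042 lower, the lowest without A_2 and the highest without Q_1. The causes were not tested.

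The sample records name no animal or batch that samples of 1 kit share. Over 10203 genes their deviations had a Spearman correlation of 0.415 between run 2 and embryos, −0.247 between run 1 and embryos and −0.278 between the runs. The kit as a replicate block changed no call of a member, with 5521 genes higher and 6197 lower in run 2 against whole embryos. All differences in ratios between sorted cells and embryos kept their sign under the alternatives, but leaving out 1 RNA sample moved them within −0.54 to −0.29 for col1a1b over col1a1a, −0.34 to −0.09 for col1a2 over col1a1a and −0.33 to −0.13 for col1a1b over col1a2. Of the log2 ratios of single groups under the alternatives, 4 moved by more than the SD between RNA samples and 41 did not. With 2 RNA samples per group, the replicate spread limits every comparison more than the depth does.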
